A study of Homo sapiens with 105 samples.

Results

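Vk2 cells, an immortalized human vaginal epithelial line, were treated for 6 h with TNF-α at 40 ng/ml and set against Vk2 cells kept in growth medium only (GM). The comparison used the 5 arrays labelled as TNF-α replicates 1 to 5 and 53 of the GM arrays, out of 105 arrays in the series. TNF-α replicate 6 was left out because its values equalled the mean of replicates 1 to 3 to within 7.67e-09, and GM replicate 52 because its values were unrelated to those of every other array (highest correlation 0.0493). Each array was an Affymetrix U133 Plus 2.0 array hybridised with the RNA of 1 sample, and 54613 probesets that are not controls were tested. The other groups of the series received the TLR ligands Pam3CSK4 (10 μg/ml), MALP2 (200 ng/ml) or imiquimod, the detergent N-9, or the gels HEC and CMC. TNF-α, the TLR ligands and N-9 are the pro-inflammatory compounds (PICs) of the study. Both groups compared here came from the same line, Vk2/E6E7, which carries the E6 and E7 genes of a papillomavirus, so they stand for one donor's cells in culture without the leukocytes and stroma of a vaginal wall.

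TNF-α binds the receptors TNFRSF1A and TNFRSF1B. The receptor gathers adaptors, ubiquitin ligases such as BIRC2 and BIRC3 and the IκB kinases, which mark the IκB proteins for degradation and so free NFκB dimers to enter the nucleus. NFκB then switches on chemokines, cytokines and survival genes, and with them its own brakes, such as the IκB gene NFKBIA and the ubiquitin-editing enzyme TNFAIP3. In several cell types TNF-α is also known to raise interferon-stimulated genes, through interferon that the cells make.

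The promoters of 7 of the genes that the results turn on are shown first, because NFκB and the interferon-activated factors read short words in them. Each is the stretch of 250 bases before a start site annotated by RefSeq on GRCh38.p14, 5′ to 3′ on the gene's own strand. Capitals mark matches on either strand to the κB consensus, or to the interferon-stimulated response element (ISRE) written as GAAANNGAAA.
TNFAIP3: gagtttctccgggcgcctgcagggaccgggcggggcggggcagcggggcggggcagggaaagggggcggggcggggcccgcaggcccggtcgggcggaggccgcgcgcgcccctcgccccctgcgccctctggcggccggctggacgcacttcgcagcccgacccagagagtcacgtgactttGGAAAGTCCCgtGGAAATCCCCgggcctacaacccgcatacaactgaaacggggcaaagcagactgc
TNIP1: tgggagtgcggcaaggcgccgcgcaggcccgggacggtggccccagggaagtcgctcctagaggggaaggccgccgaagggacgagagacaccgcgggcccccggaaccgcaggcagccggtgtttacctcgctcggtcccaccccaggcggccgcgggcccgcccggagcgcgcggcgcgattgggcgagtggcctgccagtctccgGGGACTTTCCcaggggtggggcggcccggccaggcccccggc
NFKBIA: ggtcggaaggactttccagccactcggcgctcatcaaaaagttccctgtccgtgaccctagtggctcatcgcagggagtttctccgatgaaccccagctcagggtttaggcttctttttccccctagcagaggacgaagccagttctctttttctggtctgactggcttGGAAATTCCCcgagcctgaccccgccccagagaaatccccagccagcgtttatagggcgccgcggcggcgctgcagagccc
BIRC3: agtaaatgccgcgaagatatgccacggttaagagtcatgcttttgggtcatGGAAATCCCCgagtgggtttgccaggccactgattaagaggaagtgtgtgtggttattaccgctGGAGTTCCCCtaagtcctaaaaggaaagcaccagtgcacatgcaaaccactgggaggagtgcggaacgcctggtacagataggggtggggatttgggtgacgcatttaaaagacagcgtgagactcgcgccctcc
CCL20: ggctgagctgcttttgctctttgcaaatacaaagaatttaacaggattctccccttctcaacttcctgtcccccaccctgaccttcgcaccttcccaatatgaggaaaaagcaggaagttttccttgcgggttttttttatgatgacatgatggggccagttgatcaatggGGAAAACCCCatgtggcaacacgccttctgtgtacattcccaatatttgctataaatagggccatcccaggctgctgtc
CXCL10: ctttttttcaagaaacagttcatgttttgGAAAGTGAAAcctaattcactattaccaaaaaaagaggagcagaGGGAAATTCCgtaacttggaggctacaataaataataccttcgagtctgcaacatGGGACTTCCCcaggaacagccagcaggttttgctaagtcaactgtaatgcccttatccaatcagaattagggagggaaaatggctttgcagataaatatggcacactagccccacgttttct
IFIT3: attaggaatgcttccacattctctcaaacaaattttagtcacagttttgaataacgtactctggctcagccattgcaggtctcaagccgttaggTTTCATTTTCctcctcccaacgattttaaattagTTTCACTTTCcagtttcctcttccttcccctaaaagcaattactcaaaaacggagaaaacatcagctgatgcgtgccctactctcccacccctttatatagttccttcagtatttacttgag

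These windows lie at chr6:137867009-137867258 (plus strand) for TNFAIP3, chr5:151081035-151081284 (minus strand) for TNIP1, chr14:35404750-35404999 (minus strand) for NFKBIA and chr11:102317234-102317483 (plus strand) for BIRC3. Those of CCL20, CXCL10 and IFIT3 lie at chr2:227813592-227813841 (plus strand), chr4:76023498-76023747 (minus strand) and chr10:89327747-89327996 (plus strand). TNFAIP3 and BIRC3 each held 2 κB matches and TNIP1, NFKBIA and CCL20 1 each, the one of CCL20 beginning at position -79 from the start site. CXCL10 held 2 κB matches and 1 ISRE match, at -221, whereas IFIT3 held 2 ISRE matches, at -156 and -122, and no κB match. TNIP1 and IFIT3 have 2 promoters each, and a window that held a match is the one shown. Among risen genes not shown, ICAM1 held no match of either kind. BCL2A1 held 1 ISRE and no κB match, CXCL11 1 κB and no ISRE match, and PTX3, CXCL2 and CXCL3 2 overlapping κB matches each. Over all 35116 promoter windows of this length, 9.96% held a κB match and 3.02% an ISRE match. Of the 68 genes of the functional lists that were higher with TNF-α, 59 had a promoter in the table. A κB match was found in 24 of these 59 (40.7%), against 61 of 277 list genes that did not pass the test (22.0%) and 3221 of 27305 genes with a promoter (11.8%). For the ISRE the shares were 12 of 59 (20.3%), 37 of 277 (13.4%) and 1014 of 27305 (3.71%). The lists hold NFκB and interferon-stimulated genes by choice, made with earlier results of these data known, so high shares are in part built in. Among genes higher with a fold over 2, in a list or not, 74 had a promoter in the table. Of these, 26 held a κB match (35.1%) and 17 an ISRE match (23.0%). A match describes the letters and not a bound site.

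One control array went against its label, and it bears on the values that follow. GM replicate 15 correlated best with a TNF-α array, replicate 3 (r = 0.94, across probesets), and it was the only 1 of 53 GM arrays with a TNF-α array as its nearest neighbour. Its lowest correlation with a TNF-α array was 0.926 and its highest with another GM array was 0.933, so the margin was small. Averaged over the 163 probesets called higher with TNF-α, TNF-α replicates 1 to 5 had log2 signals of 10.14, 10.15, 10.16, 9.37 and 9.36. GM replicate 15 had 9.92, while the other 52 GM arrays ran from 7.54 to 8.48 with a median of 7.84. It lay past the midpoint between the group means for 157 of the 163 probesets called higher and for 26 of the 48 called lower. GM replicates 13 and 14, the neighbours in number, had 8.23 and 8.26. The probesets were picked on the same arrays, so the gap between the groups follows in part from the picking. GM replicate 15 counted as GM in that picking. The labels give no other treatment for this array. It was kept as labelled, and the counts below are given with it and, as an alternative chosen after seeing the data, without it.

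**Figure D1:**
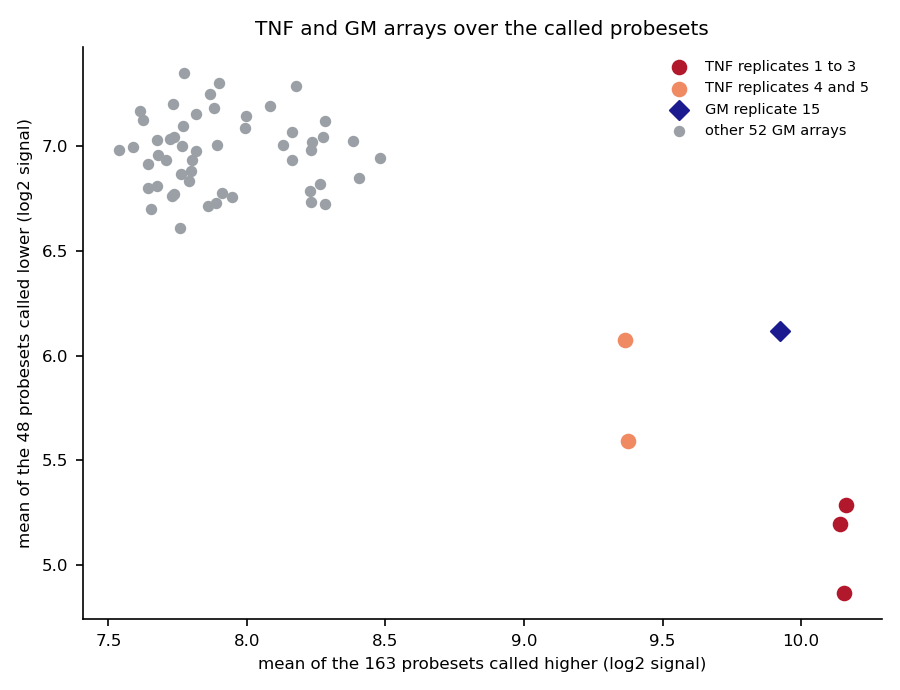
Each point is 1 array, with its mean log2 signal over the 163 probesets called higher with TNF-α on the x axis and over the 48 called lower on the y axis. The 5 TNF-α arrays (dark red for replicates 1 to 3, orange for 4 and 5) lie at 9.36 or above on the x axis, GM replicate 15 (blue diamond) lies among them at 9.92, and the other 52 GM arrays (grey) lie at 8.48 or below. The probesets were called on these same arrays, so the gap between TNF-α and GM follows in part from the picking.

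The TNF-α arrays also fell into runs. Replicates 1 to 3 and replicates 4 and 5 differed in many genes, and values are given per array for that reason. Nothing in the labels says whether the runs were separate days, passages or hybridisations. The median deposited log2 signal was 6.21 to 6.61 over the TNF-α arrays and 6.28 to 6.91 over the GM arrays. The 3′ minus 5′ signal of the ACTB control probesets, a sign of RNA integrity, was 0.17 to 0.55 with TNF-α and 0.12 to 2.05 in GM. Of the 9 epithelial markers, 0 passed the test, and their summed linear signal was 138000 to 146593 with TNF-α and 122580 to 160322 in GM. Of the 12 leukocyte, 12 fibroblast and endothelial and 5 melanocyte markers, 0 passed, with summed signals of at most 1718, 2953 and 501 with TNF-α and at most 2113, 5724 and 641 in GM. GAPDH averaged 14.31 ± 0.11 with TNF-α (SD, n = 5) and 14.39 ± 0.15 in GM (SD, n = 53).

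Against all GM arrays TNF-α changed few genes, most of them higher. Differences are TNF-α minus GM on the log2 scale of the deposited signals, tested with limma and adjusted by the Benjamini-Hochberg method over all probesets. At an adjusted p under 0.05 with a fold over 2, 163 probesets were higher (0.298% of those tested) and 48 were lower (0.0879%). Without GM replicate 15, 189 were higher and 51 lower, and 163 and 47 of the original calls were among them. On the deposited values with no quantile normalization, 161 were higher and 113 lower. With the runs as a random block, 77 were higher and 5 lower, all of them among the original calls. Set against just the first 5 GM replicates the balance turned, with 548 higher and 803 lower. With replicate number as a block as well, 116 were higher and 186 lower. By the methods' analysis of variance 419 were higher and 311 lower. Its p covers any difference among the 8 groups and does not test TNF-α against GM. Counted once per gene, at its brightest probeset and with no fold limit, 155 of 19778 genes were higher (0.784%) and 46 lower (0.233%). Without GM replicate 15 these shares were 0.885% and 0.293%, and with the runs as a block 0.394% and 0.0404%. Of 429 genes in the functional lists, 68 were higher and 1 was lower, and with the runs as a block 45 and 1. The counts of each list below are to be read beside these shares of all genes (0.784% higher and 0.233% lower). The lists were chosen with earlier results of these data known. Without TNF-α replicate 1, 2 or 3 the calls numbered 94, 99 and 108 probesets and 42, 40 and 42 list genes, and without replicate 4 or 5 they numbered 225 and 247 probesets and 67 and 66 list genes.

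Among the genes that rose most were chemokines, survival genes and receptors. CCL20, a chemokine that draws CCR6-bearing dendritic cells and lymphocytes, read 11.42, 11.58, 11.65, 10.26 and 10.75 in TNF-α replicates 1 to 5. In GM it ran from 2.69 to 11.25 with a median of 5.05. GM replicate 15 held the highest GM value, and the next was 9.71, below every TNF-α array. CCL20 rose by log2 5.60 (SE 0.71, adjusted p = 2.04e-08). The change was 4.99 with 16 added to each linear signal, and 7.80 against GM replicates 1 to 5 alone. OLR1, a scavenger receptor for oxidised lipoproteins, read 12.66, 12.80, 12.61, 12.46 and 12.50 with TNF-α, against 6.56 to 12.48 in GM (median 8.17), and rose by log2 4.36 (SE 0.38, adjusted p = 1.39e-15). It was almost level across the 5 TNF-α arrays, and the highest GM array other than replicate 15 read 10.14. INHBA, which encodes the activin A subunit, rose by log2 2.56 (SE 0.30, adjusted p = 1.51e-09), G0S2, an inhibitor of triglyceride lipase, by 2.60 and IL1R2, a decoy receptor for IL-1, by 3.22. COXFA4L3, a small mitochondrial protein gene, rose by 3.04, the long noncoding RNA LINC01127 by 3.21, the membrane protein gene TMEM52B by 2.71, RASGRP1, an activator of Ras, by 2.56 and SGPP2, a sphingosine phosphate phosphatase, by 2.55. With the runs as a block RASGRP1 (adjusted p = 0.28) and TMEM52B (0.0805) did not pass.

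In 13 genes (0.0657% of 19778) all 5 TNF-α arrays lay above all 53 GM arrays, GM replicate 15 included. Of the genes named here these were BIRC3, BIRC2, NFKBIE, TLR2, CD47, SAMD9 and TMEM52B. Without GM replicate 15 the count was 46 (0.233%), and it then took in CCL20, CXCL10, TNFAIP3, TNIP1, NFKBIA, RELB, OLR1 and BCL2A1 as well. No gene had all 5 TNF-α arrays below every GM array, and 2 genes (0.0101%) did without replicate 15.

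**Figure D2:**
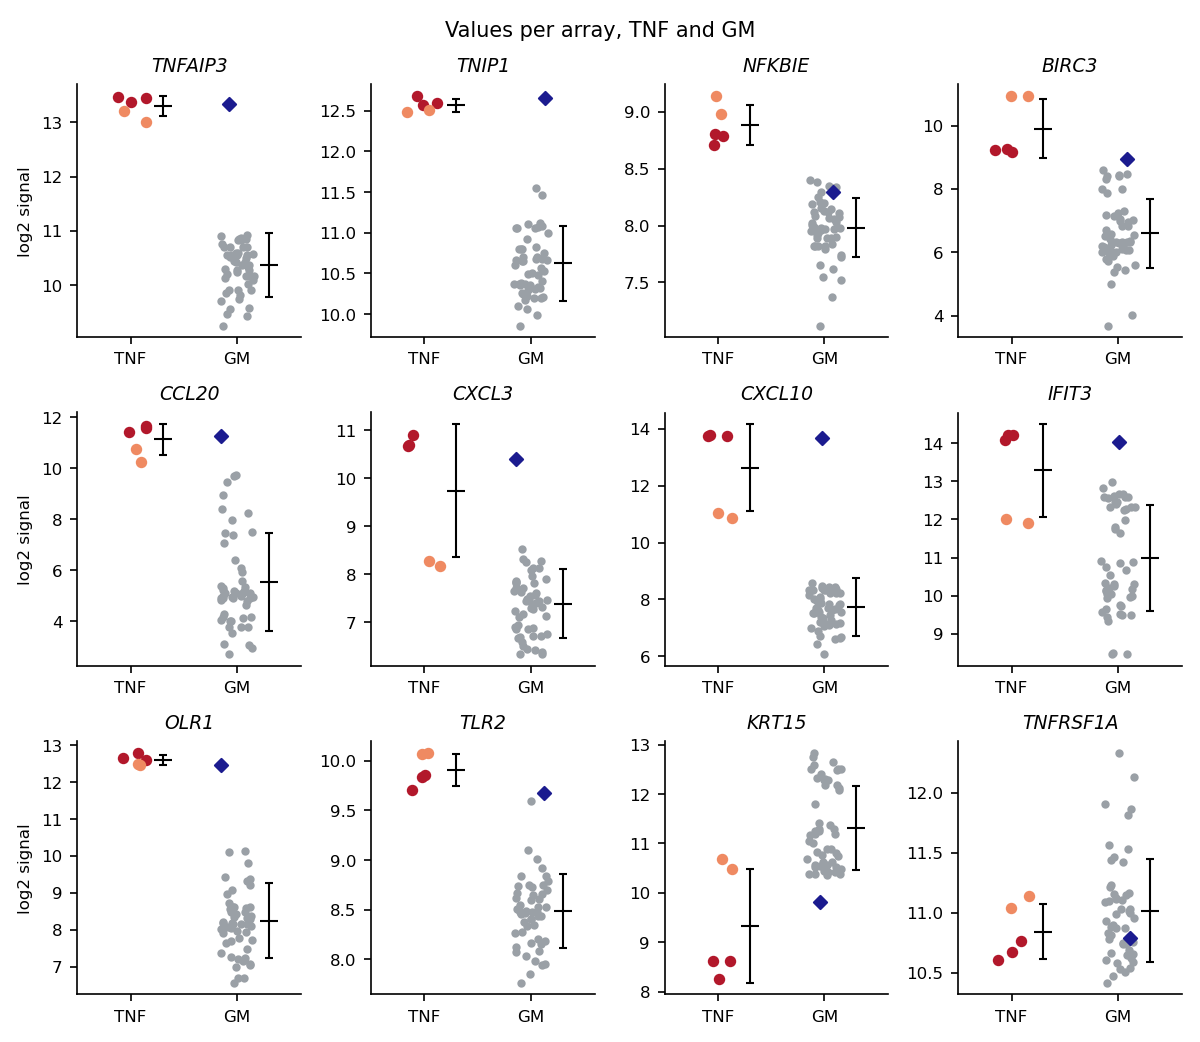
Log2 signal per array of 12 genes, with TNF-α on the left and GM on the right of each panel. Dark red points are TNF-α replicates 1 to 3, orange points replicates 4 and 5, grey points GM, the blue diamond GM replicate 15, and the bars give mean ± SD. The TNF-α arrays of TNFAIP3, TNIP1 and OLR1 lie close together, those of CXCL10, CXCL3 and IFIT3 split by run, and TNFRSF1A lies within the GM range.

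Among the receptors and the kinases they recruit, the ubiquitin ligases BIRC2 and BIRC3 rose, while neither receptor passed the test. Of 26 measured genes of this group, 4 rose and 0 fell, with a median change of log2 0.22 against 0.02 over all genes. The receptor TNFRSF1A read 10.60, 10.67, 10.76, 11.14 and 11.04 with TNF-α, inside its GM range of 10.41 to 12.34, and its change was -0.17 (95% interval -0.60 to 0.26). TNFRSF1B, the receptor found mainly on leukocytes, was dim at 6.71, 6.06, 6.41, 5.48 and 6.59 with TNF-α and 2.65 to 6.83 in GM, and did not pass (adjusted p = 0.252). BIRC3, the ubiquitin ligase cIAP2, was the strongest of the group. It read 9.25, 9.17, 9.23, 10.93 and 10.95 in TNF-α replicates 1 to 5, against 3.68 to 8.95 in GM with a median of 6.34. Every TNF-α array was above every GM array, and replicates 4 and 5 were the highest. BIRC3 rose by log2 3.30 (SE 0.51, adjusted p = 7.59e-06). Its partner BIRC2, cIAP1, rose by 1.01 (adjusted p = 3.43e-07) with values of 12.37, 12.53, 12.38, 12.52 and 12.29 with TNF-α and 10.39 to 12.13 in GM, again without overlap. CFLAR, the inhibitor of caspase 8 activation, rose by 0.92 and TAB3, an adaptor of the kinase TAK1, by 0.67. The adaptors TRADD and TRAF1 had changes of 0.47 and 0.52 and did not pass (adjusted p = 0.612 and 0.74).

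The genes of NFκB subunits and IκB proteins rose in most cases. Of 10 measured, 6 rose and 0 fell, 4 of them also with the runs as a block. NFKBIA, the IκB protein that retains NFκB in the cytoplasm and is itself an NFκB target, read 11.38, 11.68, 11.69, 12.25 and 12.32 with TNF-α and 8.18 to 11.40 in GM (median 9.92), a rise of log2 2.02 (SE 0.30, adjusted p = 2.29e-06). Its highest values were in TNF-α replicates 4 and 5, and only GM replicate 15, at 11.40, exceeded a TNF-α array. RELB, the subunit of the alternative pathway, rose by 1.52 (SE 0.20, adjusted p = 4.48e-08), with 8.46, 8.75, 8.74, 8.59 and 8.98 under TNF-α and 6.22 to 8.79 in GM. NFKBIE, the IκB-ε gene, read 8.71, 8.80, 8.79, 9.14 and 8.98 with TNF-α and 7.12 to 8.40 in GM and rose by 0.90 (adjusted p = 1.75e-08). The atypical nuclear IκB gene NFKBIZ rose by 1.10, NFKB2 by 0.85 and NFKB1 by 0.71. NFKB1 and NFKB2 did not pass with the runs as a block (adjusted p = 0.0545 and 0.493). RELA, which encodes p65, read 10.39, 10.47, 10.51, 10.84 and 10.73 with TNF-α and 9.89 to 11.10 in GM, a change of 0.01 (95% interval -0.31 to 0.33). REL had a change of 0.18 (interval -0.14 to 0.51).

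Among the inhibitors of the pathway TNFAIP3 and TNIP1 passed the test in each run alone. Of 13 measured, 3 rose and 0 fell, and the 3 passed with the runs as a block too. TNFAIP3, or A20, removes ubiquitin chains from the receptor complex. It read 13.36, 13.45, 13.46, 13.01 and 13.20 with TNF-α, against 9.26 to 13.34 in GM with a median of 10.43. All 5 arrays lay above every GM array but replicate 15 (13.34), the next GM value being 10.92. TNFAIP3 rose by log2 2.93 (SE 0.26, adjusted p = 5.74e-15), by 3.05 in replicates 1 to 3 and by 2.73 in replicates 4 and 5. TNIP1, a ubiquitin-binding partner of A20, read 12.59, 12.57, 12.69, 12.48 and 12.50 with TNF-α and 9.85 to 12.65 in GM and rose by 1.94 (SE 0.18, adjusted p = 2.16e-14). CYLD, a second deubiquitinase, rose by 1.24 (adjusted p = 5.86e-06). It did not pass with replicates 4 and 5 alone (adjusted p = 0.129), and 4 of its 7 probesets passed.

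Of 18 measured survival genes, 5 rose and 0 fell. BCL2A1, a BCL2 family member that blocks apoptosis, read 10.77, 10.59, 10.67, 9.51 and 9.39 with TNF-α and 4.97 to 10.52 in GM, a rise of log2 3.72 (SE 0.38, adjusted p = 2.66e-12). The other 52 GM arrays did not exceed 7.76, and the lowest TNF-α array read 9.39. SOD2, the mitochondrial superoxide dismutase, rose by 1.94 (adjusted p = 0.000367), with 1.51 in replicates 1 to 3 and 2.59 in replicates 4 and 5. TNFAIP8, an inhibitor of apoptosis, rose by 0.81 but did not pass with the runs as a block (adjusted p = 0.103). BIRC3 and CFLAR are the other members of this list that rose.

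Chemokines for neutrophils and for activated T cells rose, and the means of those that rose were higher in TNF-α replicates 1 to 3 than in replicates 4 and 5. Of 6 ligands of CXCR2, the neutrophil receptor, 3 rose and 0 fell (median log2 2.26). CXCL1 read 9.29, 9.36, 9.09, 9.25 and 8.77 with TNF-α and 4.53 to 8.79 in GM, a rise of 2.54 (SE 0.41, adjusted p = 1.96e-05). CXCL3 read 10.89, 10.68, 10.69, 8.18 and 8.27 with TNF-α, against 6.33 to 10.39 in GM, and rose by 2.35 (adjusted p = 2.76e-05). For CXCL3 replicates 4 and 5 lay inside the GM range of the other 52 arrays, whose highest value was 8.52. CXCL2 rose by 2.18, by 2.83 in replicates 1 to 3 and 1.19 in replicates 4 and 5. CXCL8, interleukin 8, had a change of 2.39 at its brightest probeset and did not pass (adjusted p = 0.207). It read 12.38, 12.47, 12.22, 11.56 and 11.47 with TNF-α, but GM spanned 6.94 to 13.24, and 15 GM arrays exceeded the lowest TNF-α array. CXCL8 has 2 probesets, and the other passed. CXCL5 and CXCL6 had changes of 0.95 and 0.10 and did not pass. The platelet chemokine PPBP rose by 2.66 (adjusted p = 0.037), not with the runs as a block (adjusted p = 0.685).

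Of the 3 ligands of CXCR3, which recruit T cells and NK cells, CXCL10 and CXCL11 rose and CXCL9 did not pass (adjusted p = 0.894). CXCL10 read 13.74, 13.73, 13.79, 10.88 and 11.05 in TNF-α replicates 1 to 5, against 6.06 to 13.67 in GM with a median of 7.62. GM replicate 15 read 13.67, level with TNF-α replicates 1 to 3, and no other GM array exceeded 8.56. CXCL10 rose by log2 4.91 (SE 0.43, adjusted p = 1.39e-15), by 6.02 in replicates 1 to 3 and 3.23 in replicates 4 and 5. CXCL11 read 12.70, 12.67, 12.64, 8.52 and 9.15 with TNF-α and 4.15 to 12.45 in GM and rose by 4.48 (SE 0.70, adjusted p = 8.38e-06). With TNF-α replicates 4 and 5 alone CXCL11 did not pass (adjusted p = 0.992), whereas CXCL10 did (0.00399). Of 16 other chemokines 2 rose, CCL20 and CCL5, a T cell chemokine (1.34, adjusted p = 0.034, and 0.333 with the runs as a block). CCL2, a monocyte chemokine, was dim in both groups at 2.52, 3.49, 2.91, 3.03 and 3.22 with TNF-α and 1.06 to 4.73 in GM. CXCL14, an epithelial chemokine, read 6.96, 6.99, 7.56, 12.89 and 13.19 with TNF-α within a GM range of 2.26 to 14.00.

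Of 26 interleukins and colony stimulating factors, 5 rose and 0 fell, and 4 of the 5 belong to the IL-1 family. IL36G, a cytokine of squamous epithelia, read 9.51, 9.64, 9.57, 10.66 and 10.88 with TNF-α and 5.34 to 9.56 in GM and rose by 2.83 (SE 0.44, adjusted p = 8.38e-06). TNF-α replicates 4 and 5 were the highest of the 58 arrays for it. IL1A rose by 1.62, IL1B by 1.11 and their antagonist IL1RN by 1.30 over GM medians of 12.04, 12.45 and 11.94. IL1A and IL1B did not pass with the runs as a block (adjusted p = 0.0993 and 0.078). IL32 rose by 1.47 between levels near background, 4.79 ± 0.35 with TNF-α (SD, n = 5) and 3.32 ± 0.55 in GM (SD, n = 53). IL6, a classical TNF-α target in other cells, read 7.16, 7.56, 7.81, 7.03 and 7.29 with TNF-α and 5.78 to 7.46 in GM and did not pass (0.70, adjusted p = 0.537). The TNF gene itself had a change of 0.34 (95% interval -0.26 to 0.94). Of 14 TNF superfamily ligands TNFSF10, or TRAIL, rose (1.66, adjusted p = 0.0449), with 0.164 under the run block.

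Receptors for cytokines and microbes were raised in 6 of 39 cases and lowered in 0. TLR2, the receptor for bacterial lipopeptides such as MALP2 and Pam3CSK4, read 9.70, 9.83, 9.85, 10.07 and 10.08 with TNF-α and 7.76 to 9.67 in GM, with no overlap, and rose by 1.42 (SE 0.18, adjusted p = 2.47e-08). IL7R rose by 2.02 (adjusted p = 2.3e-08), the shared gp130 chain IL6ST by 0.90, IFNAR2 by 0.88 and IFNGR1 by 0.39. IFNAR2 and IFNGR1 did not pass with the runs as a block (adjusted p = 0.0786 and 0.0872), and IL1R2 is the other member that rose. Of 20 adhesion and costimulation genes 3 rose, with ICAM1, the ligand of leukocyte integrins, at 1.48, CD83 at 1.45 and CD47 at 0.59. ICAM1 read 10.24, 10.61, 10.62, 9.99 and 9.73 with TNF-α, and 9 GM arrays exceeded its lowest TNF-α value. VCAM1, which endothelium makes in response to TNF-α, read 5.44, 4.90, 5.07, 5.50 and 4.85 with TNF-α and 2.36 to 5.94 in GM.

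Some genes that remodel the matrix or make mediators rose. Of 33 matrix genes, proteases and inhibitors, 5 rose and 0 fell, where 0.784% of all genes rose and 0.233% fell. MMP9, a gelatinase, read 12.17, 12.43, 12.42, 13.30 and 13.44 with TNF-α and 8.24 to 12.38 in GM and rose by 2.86 (SE 0.46, adjusted p = 1.7e-05). SERPINB2, an inhibitor of plasminogen activators, rose by 1.56, SERPINB1, an inhibitor of neutrophil elastase, by 1.38, SERPINB8 by 0.93 and the integrin ITGAV by 0.60. SERPINB8 and ITGAV did not pass with the runs as a block (adjusted p = 0.0739 and 0.124). PTGS2, or COX-2, the inducible enzyme of prostaglandin synthesis, read 13.61, 13.79, 13.56, 10.63 and 10.41 with TNF-α and 7.52 to 13.24 in GM. It rose by 2.27 (adjusted p = 0.024), and the rise lay in replicates 1 to 3 (3.52) rather than replicates 4 and 5 (0.38), and 27 GM arrays exceeded the lowest TNF-α array. Of 18 oxidant and prostaglandin enzymes, PTGS2 and SOD2 rose. Of 24 antimicrobial and acute phase genes 2 rose, the pattern recognition gene PTX3 (2.01, adjusted p = 0.0409) and the elastase inhibitor SERPINA1 (1.55, adjusted p = 0.0205). PTX3 read 8.98, 9.09, 8.96, 5.98 and 5.84 with TNF-α, and its values in replicates 4 and 5 lay near the GM median of 5.75. PTGS2, PTX3 and SERPINA1 did not pass with the runs as a block (adjusted p = 0.147, 0.385 and 0.429).

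**Figure D3:**
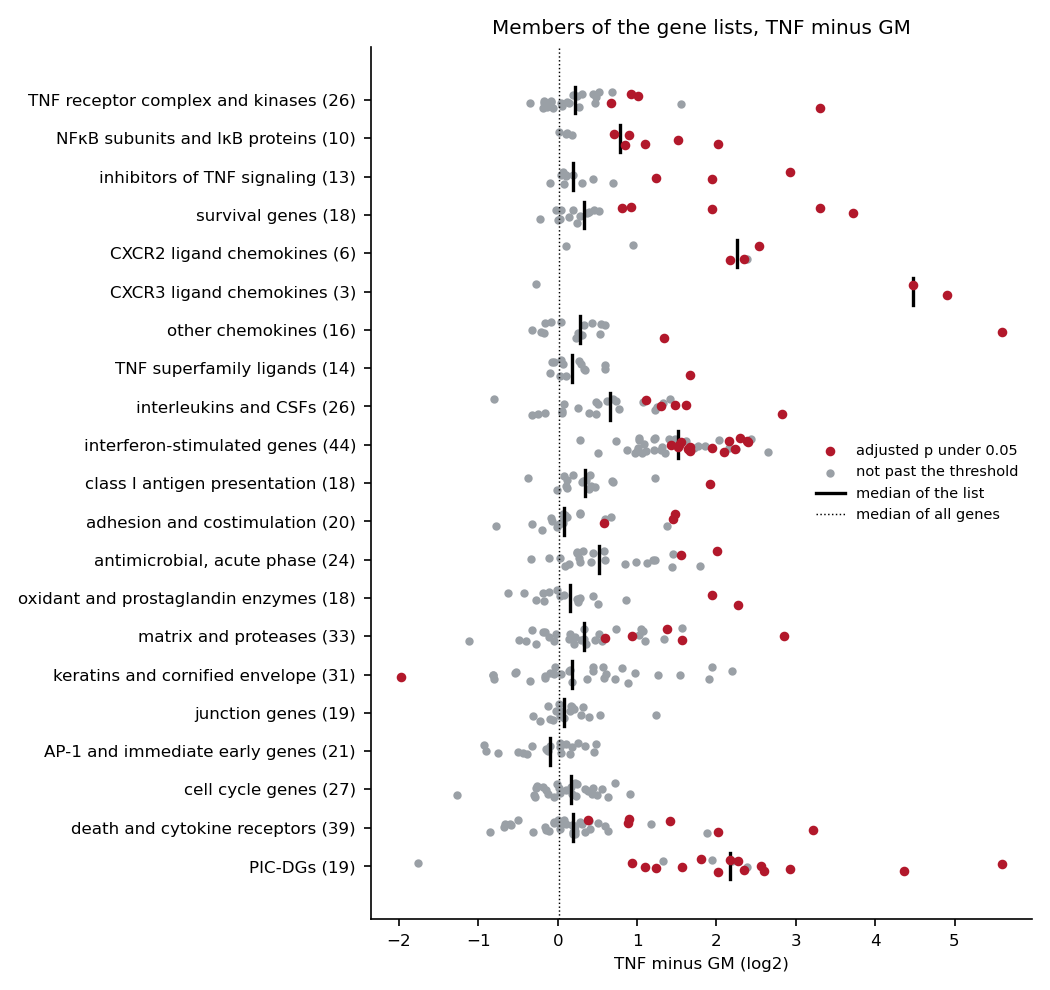
Log2 difference of each gene list member between TNF-α and GM, 1 point per gene at its brightest probeset, with the number of genes measured in brackets. Red points passed the test and grey points did not; the bars are list medians and the dotted line is the median of all genes. All red points but that of KRT15 lie right of 0.

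The interferon-stimulated genes were divided by run. Of 44 measured, 15 rose and 0 fell, with a median of log2 1.52 and all 44 values above 0. The median was 2.20 in TNF-α replicates 1 to 3 and 0.46 in replicates 4 and 5. With replicates 1 to 3 alone 26 of the 44 rose, with replicates 4 and 5 alone 0 did, and with the runs as a block 8 did. Over all 19778 genes the counts that rose in these settings were 186, 25 and 78. With so few genes passing in replicates 4 and 5 alone, the 0 there does not show an absence of change. IFIT3, an antiviral tetratricopeptide protein gene, read 14.09, 14.21, 14.22, 12.00 and 11.90 with TNF-α and 8.46 to 14.02 in GM (median 10.68), a rise of 2.30 (SE 0.62, adjusted p = 0.0483). Replicates 1 to 3 were above the whole GM group, but replicates 4 and 5 lay inside it, and 19 GM arrays exceeded the lowest TNF-α array. The GM arrays themselves covered a wide range for this gene. USP18, the protease that removes ISG15, rose by 2.40, XAF1, a pro-apoptotic gene, by 2.39, the GTPase gene GBP1 by 2.24, OAS1, the oligoadenylate synthetase, by 2.16 and the RNA sensor IFIH1 by 2.10. Of the genes named so far in this group GBP1 and IFIH1 also passed with the runs as a block (adjusted p = 0.0223 and 0.0107). RSAD2, MX1 and ISG15 had changes of 2.43, 2.25 and 1.11 and did not pass (adjusted p = 0.0737, 0.256 and 0.607).

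SAMD9, a gene of the antiviral response, rose by 2.02 in replicates 1 to 3 and 1.83 in replicates 4 and 5. It read 11.99, 12.21, 12.11, 11.92 and 11.90 with TNF-α, against 8.40 to 11.85 in GM, and rose by 1.94 (SE 0.29, adjusted p = 2.29e-06). In 33 of the 44 interferon-stimulated genes GM replicate 15 was the highest of the GM arrays, against 418 of all 19778 genes. Without it 18 of the 44 rose. Of 18 genes of class I antigen presentation TAP1, the peptide transporter, rose by 1.92 (adjusted p = 7.21e-05), by 2.68 in replicates 1 to 3 and 0.78 in replicates 4 and 5. HLA-B and B2M had changes of 0.48 and 0.11 and did not pass.

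The split between the runs did not go one way. Of the 163 probesets called higher, all 163 were above the GM mean in both runs, and 157 were over 2-fold higher in replicates 1 to 3 and 97 in replicates 4 and 5. Their median change was log2 1.99 in replicates 1 to 3 and 1.12 in replicates 4 and 5. These probesets were picked on the mean of the same 5 arrays, in which replicates 1 to 3 weigh more. The shared sign and the larger change in replicates 1 to 3 therefore follow in part from the picking. Against this, BIRC3 changed by 2.62 in replicates 1 to 3 and 4.34 in replicates 4 and 5, MMP9 by 2.44 and 3.47, IL36G by 2.35 and 3.55, and NFKBIA by 1.74 and 2.45. The difference between the runs was not tested. With replicates 1 to 3 alone 404 probesets were called, and with replicates 4 and 5 alone 48. OLR1, TNFAIP3, TNIP1, RELB, NFKBIE, BIRC2, BIRC3, CCL20 and CXCL10 were past the threshold in each run alone.

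**Figure D4:**
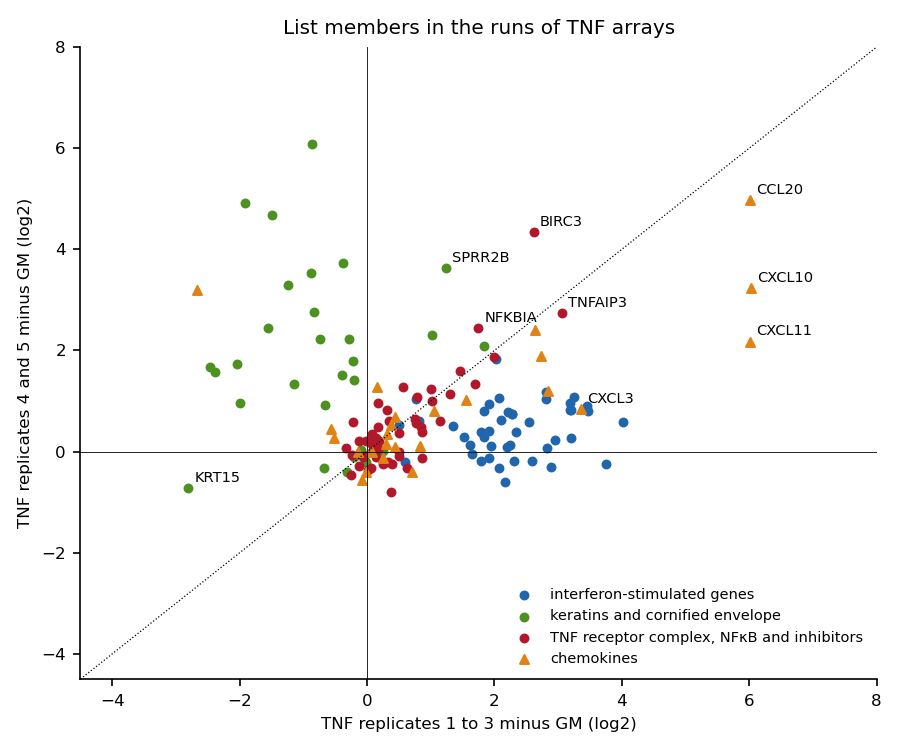
Log2 difference from GM in TNF-α replicates 1 to 3 (x axis) and replicates 4 and 5 (y axis), 1 point per gene of 4 groups, with the dotted line where both are equal. NFκB pathway genes are red and chemokines orange triangles. Interferon-stimulated genes (blue) spread along the x axis, keratin and cornified envelope genes (green) lie mostly above the line, and TNFAIP3 and CCL20 are far from 0 on both axes.

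The genes of squamous differentiation differed widely between the runs. Of 31 keratin and cornified envelope genes 0 rose and 1 fell. The list's median change was log2 -0.67 in replicates 1 to 3 and 1.66 in replicates 4 and 5. KRT1, an early suprabasal keratin, read 6.80, 6.65, 6.67, 12.80 and 12.92 with TNF-α and 5.89 to 14.28 in GM, and IVL, a cornified envelope precursor, 8.88, 8.80, 8.47, 13.11 and 13.13 with TNF-α and 6.24 to 14.20 in GM. Both ends of the TNF-α values lay within the GM range. The basal keratins KRT5 and KRT14 had changes of -0.05 (95% interval -0.18 to 0.08) and -0.10 (interval -0.23 to 0.03). KRT15, a keratin of basal cells, was the member that fell. It read 8.25, 8.62, 8.61, 10.48 and 10.69 with TNF-α, against 9.82 to 12.84 in GM with a median of 11.18, and fell by log2 1.98 (SE 0.42, adjusted p = 0.00372). GM replicate 15 had the lowest KRT15 value of the GM arrays, and 18 GM arrays lay below the highest TNF-α array. Of 19 junction genes, 21 AP-1 and immediate early genes and 27 cell cycle genes, 0 passed in either direction. At an unadjusted p under 0.05, 1, 1 and 3 of them were higher and 0, 3 and 0 lower. Over all genes 0.784% passed as higher and 0.233% as lower after adjustment, so 0 in lists of this size says little. Among the immediate early genes, EGR1 had a change of -0.75 and FOS of -0.13, and among the cell cycle genes MKI67 had 0.56 and CCND1 -0.29.

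The genes that were lower formed no list of their own, and 31 of the 48 probesets called lower had a TNF-α mean under 6 on the log2 scale. PIK3C2B, a class II phosphoinositide kinase, read 5.97, 5.73, 6.66, 6.93 and 7.36 with TNF-α and 6.16 to 10.82 in GM (median 9.31) and fell by log2 2.57 (SE 0.45, adjusted p = 0.000103). Outside GM replicate 15, which read 6.16, the lowest GM array was at 6.95, between TNF-α replicates 4 and 5. SCNN1A, a subunit of the epithelial sodium channel, fell by 1.52, LFNG, which modifies Notch receptors, by 1.40 and the transmembrane protein gene SLITRK6 by 1.59. SLITRK6 read 7.88, 7.61, 7.69, 7.40 and 7.70 with TNF-α and 7.65 to 11.40 in GM. PAX5, SERPINF1, SYT16, ADCY10, ATP6AP1L, KCNAB2 and APC2 fell by 1.07 to 1.83. Of the 12 genes named here as lower, PIK3C2B and KRT15 passed with the runs as a block (adjusted p = 0.0331 and 0.0223), and the other 10 did not (0.0863 to 0.756).

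The study picked a panel of 20 PIC discriminatory genes (PIC-DGs) on these arrays, so their direction with TNF-α is not independent evidence. Of the 19 measured here, 14 rose and 0 fell, and 11 rose with the runs as a block. Besides those described above, FGF2 rose by 2.02 (adjusted p = 0.0446), PRDM1, a transcriptional repressor, by 1.81 and GSAP by 0.94. FGF2 and GSAP did not pass with the runs as a block (adjusted p = 0.132 and 0.202). The 5 that did not pass were CXCL8, SPRR2B (2.19, adjusted p = 0.138), KRT34 (1.94, adjusted p = 0.3), PPP4R4 (1.33, adjusted p = 0.0504) and CAVIN2 (-1.76, adjusted p = 0.147). SPRR2B, a cornified envelope gene, read 10.28, 10.24, 10.56, 12.76 and 12.73 with TNF-α within a GM range of 6.35 to 14.27. CAVIN2, a caveolar protein gene, read 5.59, 4.64, 5.69, 6.63 and 6.49 with TNF-α and 5.77 to 9.81 in GM, and its 3 lowest values of the 58 arrays were TNF-α replicates 1 to 3. Without GM replicate 15 PPP4R4 passed as well (adjusted p = 0.034).

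MALP2 and Pam3CSK4 are ligands of TLR2, whose pathway also frees NFκB, and their difference from TNF-α was tested directly. Against MALP2, 23 probesets were higher with TNF-α (0.0421%) and 66 lower (0.121%), or 48 and 52 in all without TNF-α replicate 1 or 3. Most of the genes named as lower with TNF-α had MALP2 levels well above GM and TNF-α levels near it. CCL4, a macrophage chemokine, read 3.96, 3.47, 3.04, 3.21 and 3.46 in TNF-α replicates 1 to 5 and 6.52 to 8.69 over 6 MALP2 arrays, a difference of -4.33 (SE 0.36, adjusted p = 1.75e-16). MGAM, an intestinal disaccharidase, differed by -4.95 and the hair keratin KRT33A by -4.32, with TNF-α values inside the GM range for both. SPRR2C differed by -3.15, the neuropeptide gene TAC1 by -3.12 and the kallikrein inhibitor SPINK6 by -2.88. With the runs as a block CCL4, MGAM, KRT33A and SPINK6 passed, and SPRR2C and TAC1 did not (adjusted p = 0.863 and 1).

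Some genes that TNF-α raised were higher still with MALP2. CXCL1 differed from MALP2 by -2.34 (adjusted p = 0.0201), BCL2A1 by -2.15 (0.0207), CFLAR by -1.14 (0.0122) and TLR2 by -1.11 (0.0102). These did not pass with the runs as a block, where the adjusted p ran from 0.0622 to 0.471. TLR2 read 9.70, 9.83, 9.85, 10.07 and 10.08 with TNF-α and 10.55 to 11.31 with MALP2, so the groups did not overlap. Of the markers of the TNF-α response, none passed against MALP2. TNFAIP3 differed from MALP2 by -0.05 (95% interval -0.73 to 0.63), CCL20 by -1.17 (-3.00 to 0.66) and CXCL11 by 1.03 (-0.77 to 2.82), intervals that leave room for sizeable differences in either direction. CXCL10 was higher with TNF-α by 1.10 and did not pass (adjusted p = 0.673).

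Of the 6 genes named as higher with TNF-α than with MALP2, 5 had MALP2 means below GM, with differences from GM of -1.90 to -1.33. FLRT2, an adhesion protein gene, read 10.40, 10.53, 10.00, 10.87 and 10.96 with TNF-α and 8.64 to 9.21 with MALP2, a difference of 1.55 (SE 0.34, adjusted p = 0.0146). MPHOSPH9, LIAT1, the chaperone regulator BAG2 and EID2B differed by 1.50, 1.35, 1.35 and 1.33. SP100, a nuclear body protein that interferon raises, was the exception, with 12.58, 12.52, 12.43, 11.23 and 11.27 under TNF-α, 9.70 to 11.07 under MALP2 and a GM median of 10.63. It differed by 1.59 (adjusted p = 0.0236). None of these 6 passed with the runs as a block (0.0819 to 0.863).

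**Figure D5:**
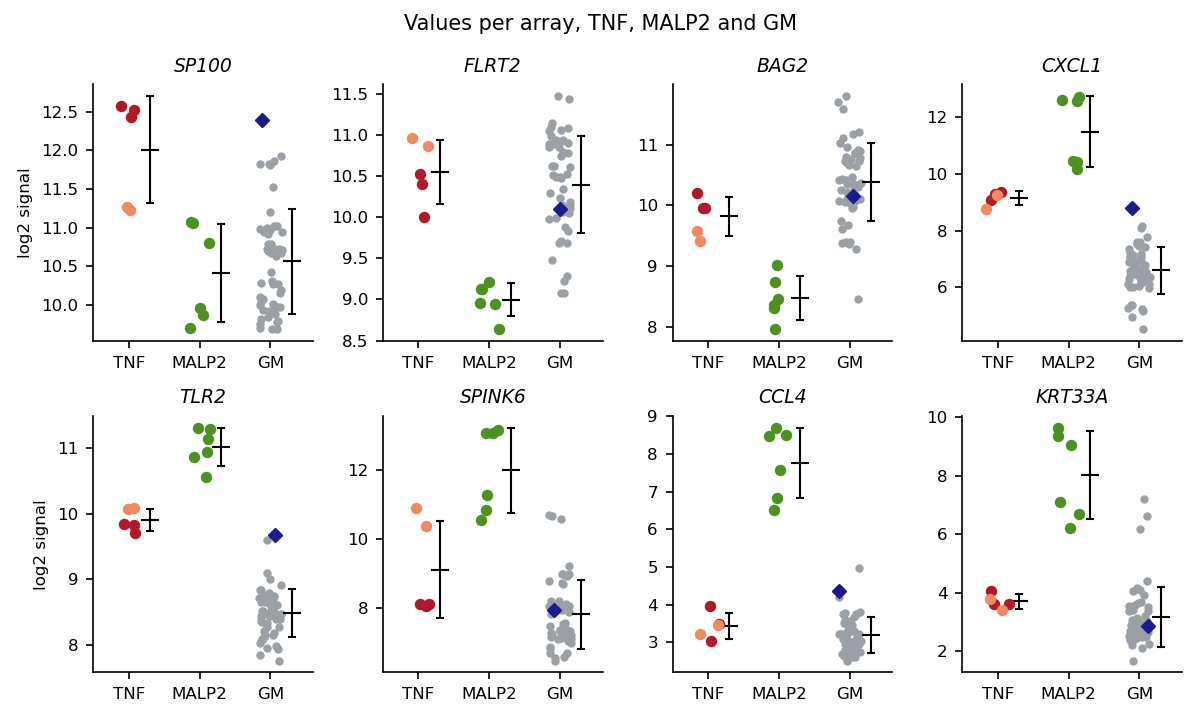
Log2 signal per array of 8 genes with TNF-α (dark red for replicates 1 to 3 and orange for 4 and 5), MALP2 (green) and GM (grey, with replicate 15 as a blue diamond); the bars give mean ± SD. SP100, FLRT2 and BAG2 are higher with TNF-α than with MALP2, and CXCL1, TLR2, SPINK6, CCL4 and KRT33A are lower.

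Against Pam3CSK4, 0 probesets passed in either direction with limma (0.0% of those tested), and the smallest adjusted p was 0.0857. An unadjusted p under 0.05 was found for 2787 of 54613 probesets, about the share that this threshold passes by chance. A difference was known to within ± 0.81 on the log2 scale at the median probeset (95% interval). TNFAIP3 was higher with TNF-α by 1.03 (95% interval 0.35 to 1.71), NFKBIA by 1.07 (0.30 to 1.84) and CXCL10 by 1.50 (0.40 to 2.60), and none of them passed after adjustment. CCL20 differed by -1.07 (-2.90 to 0.77) and OLR1 by -0.35 (-1.32 to 0.63). Set against GM, CCL20 was higher by 5.60 with TNF-α, 6.67 with Pam3CSK4 and 6.77 with MALP2, and TNIP1 by 1.94, 1.65 and 2.06. These 3 comparisons share the GM arrays.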

How the data were processed

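Affymetrix U133 Plus 2.0 arrays of Vk2/E6E7 cells were compared as the authors deposited them, as log2 signals per probeset. The submitters' notes on processing list MAS5 and GCOS 1.3, whereas the study's methods describe RMA summaries; the deposited values reach below 0 on the log2 scale and spread widely at low signal, and which of the procedures gave them is not settled here. MAS5-type signals are noisy near background, so changes between dim levels are the least certain. The log2 values of 103 arrays were quantile normalized, and 54613 probesets were fitted after 62 control probesets were left out. All 8 groups entered 1 limma fit (limma 3.58.1 in R 4.3.3, read with data.table version 1.17.8) with a mean per group, and TNF-α was contrasted with GM, MALP2 and Pam3CSK4. A probeset counted as changed where its fold exceeded 2 and its p, adjusted by Benjamini and Hochberg's method, was under 0.05. The fit was tested on simulated data with known changes, drawn independently for each array. The simulation had no runs, so it says nothing of the fit where the arrays of a run are correlated.

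Genes were read at the probeset with the highest mean over all arrays among those that name 1 gene in the platform annotation (41091 probesets, 19778 genes; 1801 probesets name several genes and 11721 are not listed there). BIRC3, SERPINB2 and KRT34 were matched to probesets through identifiers printed with the study. The genes named were the 4 markers CCL20, CXCL10, CXCL11 and TNFAIP3, 20 called genes with the largest rises and 12 with the largest falls (requiring 4 or more TNF-α arrays beyond the GM median), up to 6 members of each list past an adjusted p of 0.05, both TNF receptors, GAPDH, the PIC-DGs and the 6 genes called highest and lowest in each direct contrast. The other genes named are list members chosen after their values were seen. Members and lists were chosen with earlier results of these data known. The labels call the arrays of a group biological replicates and do not say how the cultures were grown, and the number of arrays limits the precision.

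Alternatives covered the scaling, dim probesets, an offset of 16 on the linear signal, the arrays in the fit, each TNF-α replicate left out, the runs (3 consecutive replicate numbers each) alone and as a random block with limma's duplicateCorrelation (consensus correlation 0.438), and the methods' analysis of variance. The promoter sequences are from RefSeq (GRCh38.p14), and a gene with several promoters was counted where any of them held a match.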

Additional observations from a re-analysis of the deposited data

Results flagged for a closer look

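Of the 97 named genes, 3 had 1 TNF-α array far from the other 4 by Dixon's ratio of the gap to the range, and chance alone sets apart about 1 group in 20. TAC1 read 1.52 in TNF-α replicate 3 and 4.63 to 5.23 in the others (ratio 0.836), and it is dim in both groups. SERPINB2 read 14.82 in TNF-α replicate 1 and 14.50 to 14.59 in the others (ratio 0.727). IL32 read 4.19 in TNF-α replicate 2 and 4.81 to 5.06 in the others (ratio 0.713).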

How the results depend on the processing

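The count of 211 probesets called with TNF-α stayed within 1.5 times under no quantile normalization (274), median centring (277), a filter at a mean of 6 (215), an added offset (194), a fit of the compared groups alone (190), all arrays of the series (280) and, chosen after seeing the data, without GM replicate 15 (240). It moved to 404 with TNF-α replicates 1 to 3 alone, 48 with replicates 4 and 5 alone, 82 with the runs as a random block, 95 with that block and without GM replicate 15, and 730 by the methods' analysis of variance. Leaving out 1 TNF-α replicate gave 94 to 247. The 69 list genes became 77 without GM replicate 15, 46 (45 higher, 1 lower) with the run block, 19 with replicates 4 and 5 alone, 286 by the analysis of variance and 40 to 67 with 1 replicate left out. The p of the analysis of variance covers any difference among the 8 groups, and the list count has no fold limit. Its 730 probesets and 286 list genes are therefore not calls of TNF-α against GM. The 89 probesets that differed from MALP2 became 42 with replicates 4 and 5 alone, 23 with the run block and 48 to 72 with 1 replicate left out. The 0 probesets that differed from Pam3CSK4 became 2 with no quantile normalization, 2 with the offset, 17 (6 higher, 11 lower) in a fit of the compared groups alone, 19 (4 higher, 15 lower) with replicates 1 to 3 alone and 0 to 1 with 1 replicate left out. The causes were not tested. Where arrays were left out, the number of arrays changed along with which arrays were in the fit.

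TNF-α and GM arrays share replicate numbers, but the deviations of same-numbered arrays correlated at only 0.004 to 0.06, and 2 of 5 TNF-α arrays correlated best with the GM array of their own number, so the numbers were not taken as a pairing. With GM replicates 1 to 5 as the controls 1351 probesets were called (548 higher, 803 lower) without the replicate block and 302 (116 higher, 186 lower) with it, and 71 and 25 list genes. With the replicate block 0 probesets differed from MALP2 and 0 from Pam3CSK4, where same-numbered arrays correlated at 0.05 to 0.15 and 0.06 to 0.16. MPHOSPH9, at -0.06 and not past the threshold against all GM arrays, changed by 0.72 (adjusted p = 0.0383, limma) against GM replicates 1 to 5. Of the 97 named genes, 78 passed, and 33 lost the call with the run block, 59 with replicates 4 and 5 alone, 22 with replicates 1 to 3 alone and 0 without GM replicate 15. Signal near background limits what the dim genes can show: 26 of the 163 probesets called higher had a GM mean under 6, and 31 of the 48 called lower had a TNF-α mean under 6.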

Other observations

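Of the 13 genes with every TNF-α array above every GM array, 3 that belong to no list or rule were picked after their values were seen. LACC1, an enzyme of macrophage metabolism in mouse and human, read 9.44, 9.36, 9.35, 10.20 and 9.85 in TNF-α replicates 1 to 5 and 6.81 to 8.96 in GM. GPD2, the mitochondrial glycerol phosphate dehydrogenase, read 12.37, 12.23, 12.41, 12.52 and 12.54 with TNF-α and 10.45 to 12.17 in GM. MRGPRX3, an orphan G protein-coupled receptor gene, read 8.19, 8.29, 8.04, 7.70 and 7.81 with TNF-α and 3.13 to 7.62 in GM. Their changes were log2 1.86, 1.04 and 2.09, and LACC1 and GPD2 also passed in each run alone with limma (adjusted p up to 0.0185).

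Among the differentiation genes, S100A7, an antimicrobial protein of squamous epithelia, read 8.84, 8.64, 8.74, 14.42 and 14.45 with TNF-α, and KRT13, a keratin of mucosal squamous epithelium, 7.21, 7.17, 7.19, 11.43 and 11.21. Their GM arrays ran from 7.85 to 14.75 and 7.12 to 12.91. Both were low in TNF-α replicates 1 to 3 and high in replicates 4 and 5, and neither passed the test between TNF-α and GM.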
